A study of Mus musculus with 7 samples.

Results

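The cytosolic ribosomal protein genes are described here across the cortex of 7 mouse embryos at E18.5. A gene symbol counted as a member when it began with Rpl or Rps followed by a digit, or was Rplp0, Rplp1, Rplp2 or Rpsa. Symbols that hold "-ps", which mark pseudogenes, and the Rps6k kinases were left out. This rule took 88 of the 23413 symbols in the tables, 52 of them Rpl and 36 Rps. The rule works on names, so it also took Rps19bp1, which encodes a binding partner of Rps19 and no ribosomal protein, and Rps3a2 and Rps3a3, which GENCODE lists as processed pseudogenes, and Rps4y2, an older symbol of a gene that RefSeq lists as a transcribed pseudogene. Fau and Gnb2l1, ribosomal protein genes with other names, are no members and were read with the translation genes.

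All 7 embryos came from 1 litter. Each gave 1 Seq-Well library, a method that pairs single dissociated cells with barcoded beads in small wells and counts each captured poly(A) transcript once through its molecular tag (UMI). The 4 mutant embryos (replicates 10, 11, 12 and 17) were Emx1CreERT2;Ash1lfl/fl, with the floxed alleles of the histone methyltransferase gene Ash1l and a tamoxifen-dependent Cre expressed from Emx1, which is active in dorsal forebrain progenitors. The 3 control embryos (replicates 14, 15 and 16) were Ash1lfl/fl without the Cre. The dam was given tamoxifen, 100 mg/kg, at E10.5, so all embryos of both groups were exposed to the drug. GABAergic neurons, microglia and vessels arise outside the Emx1 lineage, and cells in which the Cre acted cannot be told from others by these tables.

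A ribosome holds 1 copy of most of its proteins, and the large and small subunits are assembled in the nucleolus and nucleus from ribosomal RNA and these proteins before export. The messenger RNAs of ribosomal proteins typically begin with a 5′ terminal oligopyrimidine (TOP) tract, a C followed by a run of C and T, through which mTOR and the binding protein Larp1 set how much of them is translated. In the developing cortex, radial glia divide and give rise to intermediate progenitors, whose daughters become excitatory neurons, and ribosome production is known to be high in growing and dividing cells. Amounts of transcript alone do not give amounts of ribosome.

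The start regions below are shown because the TOP tract is the sequence feature by which this family is recognised, for members named in the results that follow and for Rps27 as the paralog of Rps27l. Sequences come from the RefSeq promoter table of GRCm38.p6. Each runs 5′ to 3′ over 30 bases, of which base 16 is the annotated start of transcription. Capitals mark the longest run of a C followed by at least 5 pyrimidines.
Rps27l, chr9:66946071-66946100, plus strand: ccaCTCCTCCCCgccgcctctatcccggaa
Rps27, chr3:90213634-90213663, minus strand: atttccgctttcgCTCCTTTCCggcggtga
Rps9, chr7:3704026-3704055, plus strand: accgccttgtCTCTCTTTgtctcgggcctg
Rps18, chr17:33955651-33955680, minus strand: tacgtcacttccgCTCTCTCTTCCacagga
Rpl15, chr14:18270972-18271001, minus strand: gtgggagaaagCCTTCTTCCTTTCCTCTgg
Rplp0, chr5:115559452-115559481, plus strand: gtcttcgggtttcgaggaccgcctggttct
Rpl35a, chr16:33056438-33056467, plus strand: gcggggcgtgcgtcccacaaggccgcgcgg
Rpl37a, chr1:72711245-72711274, plus strand: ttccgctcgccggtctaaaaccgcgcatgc
In Rps27, Rps9, Rps18 and Rpl15 the tract lay across or next to the annotated start. In Rps27l it lay upstream of it, and the windows of Rplp0, Rpl35a and Rpl37a held no such run. Of the 88 members, 65 matched the table by symbol, and 38 of them (58.5%) held such a run, on the strand of the gene, within 20 bases of the start. The share was 29.4% among 16527 genes with a RefSeq window and 36.2% among 69 genes of the mitochondrial ribosome. The ETS core CCGGAAG, read on both strands over 300 bases, was in 25 of the 65 members (38.5%), in 12.4% of all genes and in 36.2% of mitochondrial ribosomal genes. The RefSeq start used for each gene was the one nearest to the start of GENCODE's principal transcript. It lay within 20 bases of that start in 32 of the 65 members, so a missing run says only that these letters are not in this window.

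Barcodes were kept when they showed 500 genes or more and no more than 10% mitochondrial UMIs, which left 23005 of 50191. The kept barcodes held 5316785 to 6726884 UMIs per mutant embryo and 7260191 to 9460628 per control embryo, and the median UMIs per kept barcode ran from 1242 to 1722 in mutants and from 1343 to 2133 in controls. Of 22967 distinct kept barcodes, 24 occurred in 2 or more libraries. Ash1l had 156, 157, 170.4 and 121 CPM (UMI counts per 1000000 kept UMIs) in mutants 10, 11, 12 and 17, and 162, 217 and 206 in controls 14, 15 and 16, and the groups overlapped; the labels do not state the deleted part, so this checks little. Transcripts of other tissues were present in both groups. Erythroid markers (9 of 10 with a row) summed to 1724 to 2470 CPM in mutants and to 989.6 to 2849 in controls, with 1 to 3 of them at 0 in each embryo. Meningeal markers (8 genes) summed to 12.8 to 52.3 in mutants and 9.71 to 17.2 in controls. Choroid plexus markers (6 genes) summed to 451 in mutant 12, to 1.64 to 30.3 in the other mutants, to 135 in control 14 and to 1.97 and 2.64 in controls 15 and 16. The part of these transcripts in the results below was not tested.

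Members gave 1015420 of the kept UMIs, a share of 2.10%, nearly evenly divided between Rpl symbols (48.8%) and Rps symbols (51.2%). The family was very uneven within itself, although the ribosome needs most of its proteins in equal number. The 10 most counted symbols held 60.8% of the members' UMIs, 62 symbols had at least 1000 UMIs, and 8 had fewer than 100. UMIs here are counts of poly(A)-primed molecules, so transcript length does not enter the levels below, which are given as CPM of each embryo's kept UMIs.

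Rps14, of the small subunit's platform, was among the most counted members. It had 2010.2, 1734, 1644 and 2535 CPM in mutants 10, 11, 12 and 17, and 2236, 1853 and 1890.2 in controls 14, 15 and 16. Its mean was 1986 ± 309 CPM (SD, n = 7), and mutant 17 was highest while the groups overlapped. Rps3, which sits where messenger RNA enters the ribosome, averaged 1321 ± 196 CPM. Rpl4, which lines the exit tunnel of the large subunit, averaged 1292 ± 193 CPM, and Rpl13a, of the same subunit, 1230.4 ± 237. The next members in order were Rpl8, Rps9, Rpl32 and Rps21, at 954, 929, 864 and 443 CPM. Rplp0 stood between Rps14 and Rps3. The steps from Rps14 down to Rplp0, from Rpl13a to Rpl8 and from Rpl32 to Rps21 were larger than the SD of both neighbours, and the other neighbours in this order differed by less than the larger SD of the pair.

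The stalk of the large subunit, which recruits the elongation factors, is built from Rplp0 and pairs of Rplp1 and Rplp2. Rplp0 had 1112, 1157, 1538 and 1702 CPM in mutants 10, 11, 12 and 17, and 1652, 1446 and 1284 in controls 14, 15 and 16. Mutants 10 and 11 were its lowest embryos, as they also were for other members such as Rps3a1 and Rpl13. For 39 of the 80 members with at least 100 UMIs the lowest embryo was mutant 12. Rplp1 averaged 335 ± 57 and Rplp2 305 ± 42.1 CPM (SD, n = 7), below Rplp0, although each ribosome carries more of both than of Rplp0. Rpsa, a small subunit protein once described as a laminin receptor, averaged 45 ± 4.79 CPM.

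Paralog pairs were mostly one-sided in counted UMIs. Rps27l, a paralog of Rps27 that p53 is known to induce, averaged 83.6 ± 8.58 CPM, while Rps27 itself had 3 UMIs in all kept barcodes together, 1 in mutant 12 and 2 in control 14. Rpl36al averaged 70.6 ± 13.2 CPM and Rpl36a 15.1 ± 3.68. The other pairs leaned to the first-named gene. Rpl22 averaged 407 ± 39 and Rpl22l1, which Rpl22 protein represses in mice, 50.4 ± 6.25 CPM. Rpl7 averaged 321 ± 83.2 and the Rpl7-like gene Rpl7l1 75.3 ± 8.09 CPM. Rpl3, Rpl39 and Rpl10 averaged 108, 139 and 6.77 CPM. Of their paralogs, known for expression in muscle (Rpl3l) and testis (Rpl39l and Rpl10l), 2, 7 and 3 UMIs were found in all embryos together. Rps4x, the X-linked gene, averaged 71.9 ± 17.9 CPM, and Rps4y2, an older symbol of Rps4l, which RefSeq lists as a transcribed pseudogene, averaged 24.2 ± 4.46. By the measure given below, Rps27 shares 98.6%, Rpl36a 85.5% and Rpl10 100% of its 3′ sequence with other genes. For Rps27l and Rpl36al it is 22.4% and 67%, so which gene of these 2 pairs has more transcripts is uncertain. The low partners Rpl7l1 (1.33%), Rpl3l (0%), Rpl39l (0%) and Rpl10l (6.65%) share little, and Rpl22l1 shares 63.9%.

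Some members at the low end are proteins that every ribosome is known to hold. Rps27a, made as a fusion with ubiquitin, averaged 8.29 ± 3.26 CPM and Rps6, the substrate of the S6 kinases, 3.79 ± 1.25. Rps29 had 77 and Rps12 14 UMIs in all embryos together. Rps12 was found in every embryo, at 3, 1, 1 and 3 UMIs in mutants 10, 11, 12 and 17, and at 1, 2 and 3 in controls 14, 15 and 16. The tables do not state how reads that match several genes were counted, and many of these genes have near-identical processed copies in the genome, so the low values are uncertain as levels of the gene. The last 500 bases of each member's principal GENCODE transcript were therefore cut into all runs of 50 bases, and the share also present in transcripts of other genes was recorded. More than 80% was shared for 23 of the 87 members found in GENCODE by symbol, and these had a median of 15.1 CPM. No run was shared for 19 members, whose median was 83.4 CPM. Shared were 96.9% of the runs of Rps12, 98.6% of Rps27, 90.7% of Rps6 and 92.7% of Rps27a, against 0% of Rps24 and 22.4% of Rps27l. Rps29 (35.8%) was low with less sharing, and Rpl21 (26.5 ± 4.21 CPM) was low with 0%. Across the 87 members the Spearman correlation of shared sequence with level was −0.29, given as a description because members are not independent. The 25 symbols with "-ps" that the rule left out held 1481 UMIs, or 0.146% of the members' UMIs. The plot of levels by symbol marks the widely shared members.

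**Figure D1:**
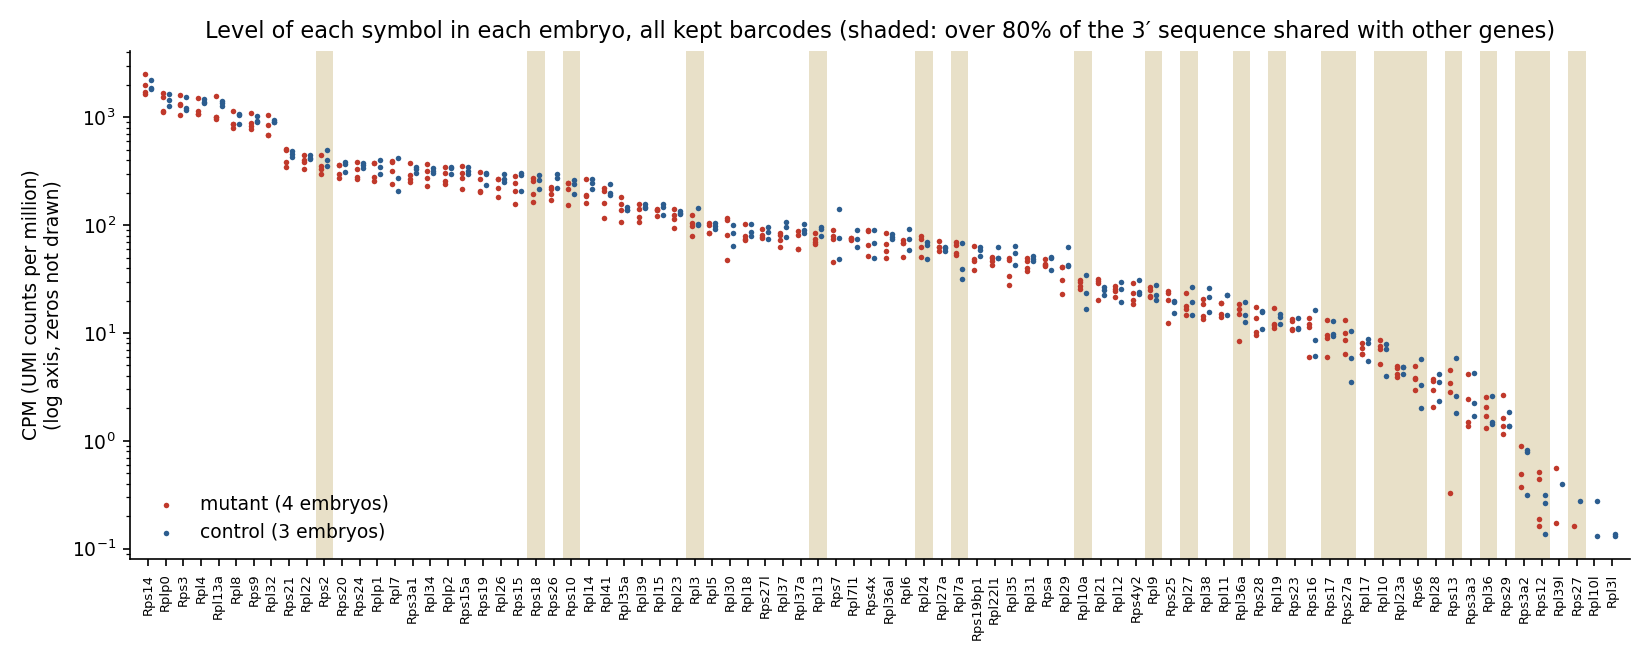
Level of 84 symbols, ordered by mean, as CPM on a log axis; each point is 1 embryo, with mutants (4) left of controls (3) and zeros not drawn. The 22 shaded symbols share over 80% of their 3′ sequence with other genes, and their median was 14.2 CPM.

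Members differed in how far they varied between embryos. Over the 80 members with at least 100 UMIs, the median ratio of the highest to the lowest embryo was 1.64. Rpl27a, Rpl5 and Rpl23a were the steadiest of them, with ratios of 1.23, 1.24 and 1.25. Rps13 had 3.43, 4.51, 0.327 and 2.82 CPM in mutants 10, 11, 12 and 17, and 5.92, 2.63 and 1.8 in controls 14, 15 and 16. It was nearly missing from mutant 12, with 2 UMIs, and highest in control 14, with 43. Rps7 had 80.2, 73.7, 45.1 and 89.3 CPM in mutants and 139.9, 76 and 48.3 in controls, in the same order of replicates, and was low in mutant 12 and control 16 alike. Mutant 17 was the highest embryo for 26 of the 80 members. The genes of wide or narrow range were chosen after their values were seen.

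The share of an embryo's UMIs that fell on members was compared next, first in all kept barcodes. It was 2.01%, 1.87%, 1.75% and 2.47% in mutants 10, 11, 12 and 17, and 2.34%, 2.12% and 2.05% in controls 14, 15 and 16. Mutant 17 stood above every control and the other 3 mutants stood below every control, so the groups overlapped. Mutants averaged 2.03% ± 0.317 (SD, n = 4) against 2.17% ± 0.149 for controls (SD, n = 3), a difference of −0.145 percentage points. In sums over a whole dissociated cortex, fewer cells of a type and less RNA per cell cannot be told apart.

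The shares changed little when the depth of the barcodes was matched. With every kept barcode of at least 1000 UMIs thinned to 1000 UMIs, the share was 2.04%, 1.86%, 1.75% and 2.49% in mutants 10, 11, 12 and 17, and 2.36%, 2.11% and 2.05% in controls 14, 15 and 16. The difference was then −0.14 percentage points. Thinning leaves the expected share of each barcode as it is. It changes only the weight of barcodes and drops those under 1000 UMIs, so near-equal shares were likely in advance. Within barcodes of under 1000, 1000 to 1500, 1500 to 2500 and over 2500 UMIs it was −0.153, −0.151, −0.11 and −0.156. After thinning the embryos kept their order from 17 at the top through 14, 15, 16, 10 and 11 to 12 at the bottom. In barcodes with under 500 genes mutant 17 was again highest (2.44%) and mutant 12 lowest (1.67%). Mutant 12, the lowest, also held the most erythroid and choroid plexus transcripts of the mutants. Among controls, control 14, the highest, held the most choroid plexus transcripts (135 CPM). Control 16, the lowest of them, held the most erythroid transcripts (2849 CPM). Whether these transcripts bear on the share was not tested. Without barcodes of more than 1% haemoglobin UMIs the difference was −0.143. The size of the difference rested on single embryos. Without mutant 17 it was −0.294, without mutant 12 −0.0529, without mutant 11 −0.0924 and without control 14 −0.0615 percentage points.

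**Figure D2:**
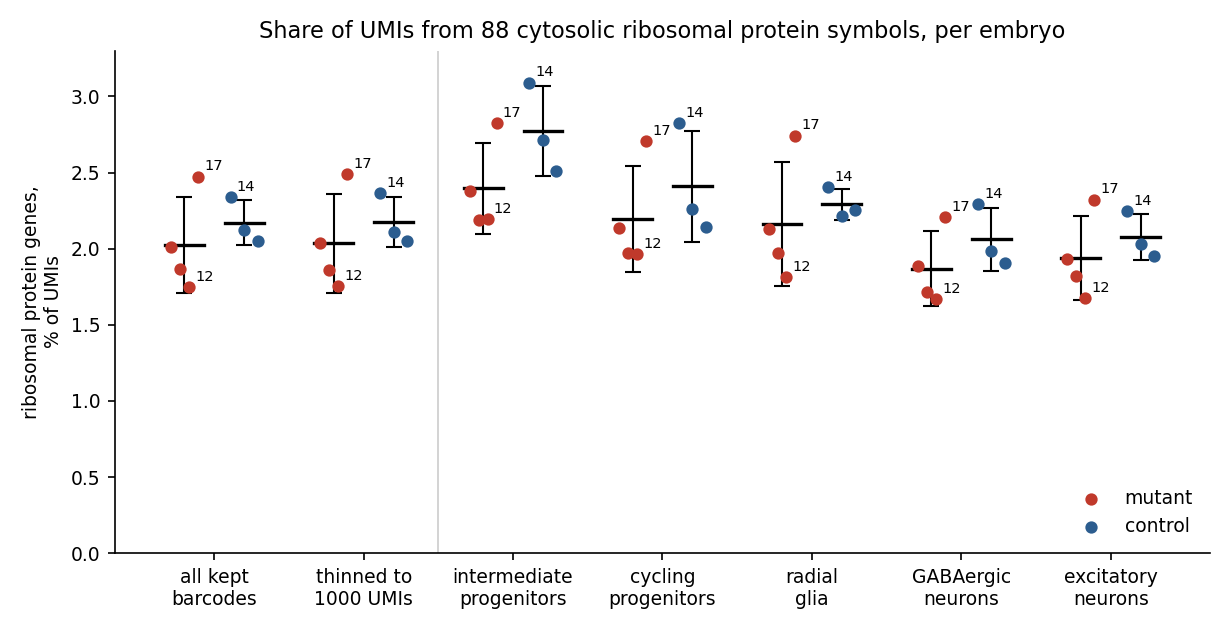
Share of UMIs on the 88 symbols per embryo, in percent, in all kept barcodes, after thinning, and in 5 marker gates; points are embryos (mutants left of controls, replicates 12, 17 and 14 numbered), lines are means and bars SD. Mutant 17 and control 14 were the 2 highest embryos in every column, and of the 5 gates drawn the intermediate progenitor gate had the highest mean share.

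Gene by gene, no member passed the test between mutants and controls. The test was edgeR's quasi-likelihood test on UMIs summed per embryo, with Benjamini-Hochberg adjustment over all genes tested and a threshold of 0.05; the embryo was the replicate. In all kept barcodes 0 of 82 tested members were called, against 5 of all 12893 genes (0.0388%). At an unadjusted p under 0.05 there were 5 members, all lower in mutants, which is 6.1% of 82; of all genes, 5.46% were lower at this p. DESeq2 also called 0, with 6 at an unadjusted p under 0.05. The share of all genes at this p by DESeq2 is not given, here or below. DESeq2 counts of members are therefore not set against all genes. Of the 82 members 64 had a negative and 18 a positive log2 fold change, with a median of −0.14, against a median of 0.0029 over all genes. The median was −0.12 to −0.14 with the 3 other scalings. It moved with single embryos, to −0.26 without mutant 17, −0.063 without mutant 12, −0.077 without mutant 11 and −0.031 without control 14.

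The 5 members with the smallest p were Rps26, Rpl37a, Rpl13, Rpl29 and Rpl37. Rps26, of the small subunit's messenger RNA exit channel, had 218, 168, 190.1 and 235 normalised CPM in mutants 10, 11, 12 and 17, and 280.0, 220.3 and 303 in controls 14, 15 and 16. Mutants 10, 11 and 12 lay under every control and mutant 17 above control 15, with means of 203 ± 29.9 in mutants and 268 ± 42.5 in controls (SD; log2 fold change −0.40, SE 0.13, edgeR adjusted p = 0.335). Rpl29, a small protein of the large subunit, had 41.2, 30.7, 22.4 and 42.5 normalised CPM in mutants and 63.8, 42.7 and 42.2 in controls, in the same order of replicates. Mutant 12 was lowest and control 14 highest, and mutant 17 lay between control 16 and control 15 (log2 fold change −0.53, SE 0.22, edgeR adjusted p = 0.433). Rps26 lies at chr10:128624534-128626747 and Rpl29 at chr9:106429454-106431568 (GENCODE, mm10). Rpl37, Rpl37a and Rpl13, all of the large subunit, had log2 fold changes of −0.33, −0.37 and −0.29, with edgeR adjusted p of 0.434, 0.422 and 0.431. Rpl13 shares 90.7% and Rpl29 73.4% of its 3′ runs with other genes, so both are uncertain as single genes.

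After thinning, 0 of 78 members were called (background 0.0264%), with 4 at an unadjusted p under 0.05, all lower in mutants (5.13%, against 4.6% of all genes), and 4 by DESeq2, which called 0. Rpl29 (log2 fold change −0.62, SE 0.20, edgeR adjusted p = 0.415), Rpl37a, Rpl37, Rps26 and Rpl35 had the smallest p. Rpl29 then had 37.7, 29.3, 20.8 and 38.5 normalised CPM in mutants 10, 11, 12 and 17, and 63.3, 41.5 and 42 in controls 14, 15 and 16, without overlap. In the excitatory neuron gate 0 of 80 were called (background 0.0533%), with 4 at an unadjusted p under 0.05, all lower in mutants (5%, against 5.59% of all genes), and 4 by DESeq2, which called 0. Rps26 led with 192 ± 27.7 normalised CPM in mutants (SD, n = 4) against 261 ± 38.3 for controls (SD, n = 3; log2 fold change −0.44, SE 0.13, edgeR adjusted p = 0.249), followed by Rpl37a, Rpl37, Rpl29 and Rpl35. The 3 sums share barcodes, so their like order of genes is no independent support. Leaving out mutant 17 moved the result most. Then 2 of 81 members were called lower in mutants, among them Rpl13a (log2 fold change −0.48, edgeR adjusted p = 0.0387), against 0.672% of all genes, and 31 members, all lower, had an unadjusted p under 0.05 (of all genes, 10.6% were lower at this p). With mutant 17 kept, Rpl13a had 1020.1, 991, 936 and 1621 normalised CPM in mutants 10, 11, 12 and 17, and 1403, 1411 and 1277 in controls 14, 15 and 16, and was not called (log2 fold change −0.26, SE 0.17, edgeR adjusted p = 0.601).

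**Figure D3:**
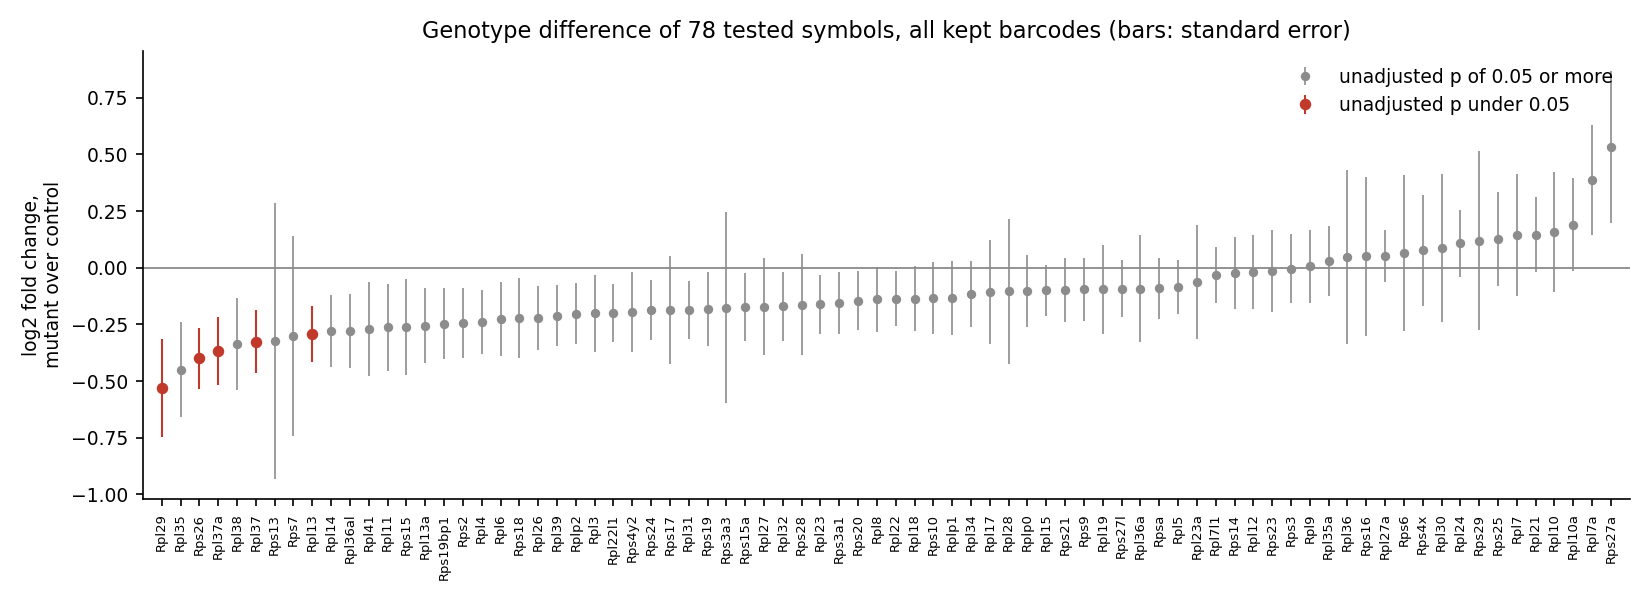
Log2 fold change, mutant over control, of 78 tested symbols in all kept barcodes, with standard errors, ordered by size; red points have an unadjusted p under 0.05. Of the 78 drawn, 61 lie below 0 and none passed the adjusted threshold.

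In the other gates the counts were also 0: 0 of 71 members in radial glia (background 0.0204%), 0 of 59 in cycling progenitors (background 0%), 0 of 57 in intermediate progenitors (background 0%) and 0 of 65 in GABAergic neurons (background 0.0254%). At an unadjusted p under 0.05, edgeR gave 0 of 71 members in radial glia and 4 of 59 in cycling progenitors. It gave 6 of 57 in intermediate progenitors and 8 of 65 in GABAergic neurons. Of all genes, 5.19%, 4.13%, 6.29% and 6.7% had such a p, in the same order of gates. By edgeR, the members' share was above that of all genes in each of these gates except radial glia. All 4 in cycling and all 6 in intermediate progenitors were lower in mutants, as were 7 of the 8 in GABAergic neurons. DESeq2 called 0 in each, with 0, 1, 4 and 3 members at an unadjusted p under 0.05 in the same order of gates. These fewer DESeq2 counts have no share of all genes beside them, so the comparison with all genes rests on edgeR alone. The median log2 fold change, mutant over control, was −0.069 in radial glia, −0.17 in cycling progenitors, −0.20 in intermediate progenitors, −0.18 in GABAergic neurons and −0.16 in excitatory neurons. These medians moved with single embryos. They were lowest without mutant 17, at −0.22, −0.28, −0.28, −0.31 and −0.24 in the same order of gates. They were nearest 0 in radial glia without mutant 12 (−0.015), and in the other 4 gates without control 14, at −0.023, −0.14, −0.12 and −0.047. GABAergic neurons lie outside the lineage in which the Cre acts, and the difference between their median and that of excitatory neurons was not tested. Between radial glia and excitatory neurons the genotype effect was compared in 1 edgeR model with the embryo as a term: 0 of 76 members differed (background 0.00871%), and 0 had an unadjusted p under 0.05, against 3.81% of all genes.

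Gates were set by markers: a barcode went to the list of 10 markers of which it had most, with at least 2. Marker lists that were not used for gating were read in each gate as a check. The radial glia list (Vim, Sox2, Dbi, Mt3) summed to 3181 CPM in the radial glia gate, against 197 in excitatory neurons. The excitatory list (Stmn2, Tubb3, Nrgn, Mef2c) summed to 1424 CPM in radial glia, against 4007 in excitatory neurons, so transcripts of neurons were also counted in progenitor barcodes. The GABAergic list (Sst, Npas1, Maf, Erbb4) summed to 966 in its gate, against 26.4 in excitatory neurons. The excitatory list reached 2474 in the GABAergic gate. The cycling list (Hmgb2, Ccnb1, Pcna, Mcm6) summed to 992 in its gate, against 518 in radial glia and 125 in excitatory neurons. In the cycling gate the radial glia list summed to 2138. The intermediate progenitor list (Elavl4, Btg2, Pax6, Sox4) separated least, with 1995 in its gate, against 1673 in excitatory and 1822 in GABAergic neurons. Markers of other tissues were also counted in the gates. Choroid plexus markers (6 genes) summed to 0 to 1236 CPM over embryos in radial glia, 0 to 57.2 in cycling progenitors, 0 to 73.7 in intermediate progenitors and 0 to 805 in GABAergic neurons, against 0 to 103 in excitatory neurons. The highest value in radial glia came from mutant 12 and that in GABAergic neurons from control 14. Summed over embryos, 3 of the 6 were at 0 in cycling and 2 in intermediate progenitors, and none in the other 3 gates. Erythroid markers (9 genes) summed to 641 to 3385 CPM in radial glia, 434 to 3255 in cycling progenitors, 34.3 to 10128 in intermediate progenitors and 263 to 4544 in GABAergic neurons, against 686 to 2429 in excitatory neurons. Of these 9, 2 were at 0 in cycling progenitors, 3 in intermediate progenitors and 2 in excitatory neurons. Meningeal markers (8 genes) summed to 12.6 to 25.6 CPM in radial glia, 2.49 to 259.7 in cycling progenitors, 0 to 7.61 in intermediate progenitors and 1.74 to 183 in GABAergic neurons, against 1.87 to 31.9 in excitatory neurons, with 5 of the 8 at 0 in intermediate progenitors, 1 each in radial glia and GABAergic neurons and none in the other 2 gates. The part of these and of the mixed transcripts in the results below was not tested, and the counts below compare gates rather than pure cell types.

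Among the 5 gates with at least 20 barcodes in every embryo, the members' mean share of UMIs was highest in intermediate progenitors, then in cycling progenitors and radial glia, and lowest in both kinds of neuron. In the intermediate progenitor gate (858 barcodes) it was 2.38%, 2.19%, 2.2% and 2.82% in mutants 10, 11, 12 and 17, and 3.09%, 2.71% and 2.51% in controls 14, 15 and 16. In the excitatory neuron gate (8902 barcodes) it was 1.93%, 1.82%, 1.67% and 2.32% in the same mutants and 2.25%, 2.03% and 1.95% in the same controls. Every embryo was higher in its intermediate progenitors than in its excitatory neurons, by 0.559 ± 0.159 percentage points (SD, n = 7), a ratio of 1.28 ± 0.066. The cycling progenitor gate (1092 barcodes) was higher than excitatory neurons by 0.289 ± 0.148 and the radial glia gate (2954 barcodes) by 0.22 ± 0.104 percentage points, each in 7 of 7 embryos. GABAergic neurons (1752 barcodes) differed from excitatory neurons by −0.046 ± 0.0553, lower in 6 of 7 embryos. Excitatory neuron barcodes were deeper, with median UMIs of 1541 to 2996 per embryo, against 1258 to 2305 in intermediate progenitors and 1188 to 1764 in radial glia. With barcodes thinned to 1000 UMIs the differences were 0.54, 0.224, 0.196 and −0.0899 percentage points, in the order intermediate progenitors, cycling progenitors, radial glia and GABAergic neurons. With only members of at most 50% shared 3′ sequence, an alternative chosen after seeing the data, intermediate progenitors were still 0.426 and radial glia 0.164 percentage points higher than excitatory neurons.

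Glia and vessels gave too few barcodes for a test, with 1 to 19 per embryo in each gate. In barcodes pooled over embryos the share was 2.38% in oligodendrocyte precursors (52 barcodes; 95% exact binomial interval 2.30% to 2.47%), 2.61% in microglia (54 barcodes; 2.52% to 2.69%), 2.17% in endothelial cells (47 barcodes; 2.07% to 2.27%) and 1.86% in mural cells (65 barcodes; 1.79% to 1.94%). These intervals cover counting error only. Over single embryos the microglial share ran from 1.66% to 3.27%, above the same embryo's excitatory neurons in 6 of 7. The endothelial share ran from 1.58% to 4.32%, the highest value coming from 1 barcode in control 14, and was above excitatory neurons in 5 of 7 embryos.

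Single members were then compared between gates in 1 edgeR fit over the 5 gates, with the embryo as a term. The fit tested 68 members among 9144 genes. In intermediate progenitors 35 members were higher and 2 lower than in excitatory neurons, which is 51.5% and 2.94% of the 68. Over all genes 21.2% were called higher and 18.9% lower, 40.1% together. The members' median log2 fold change was 0.26, against 0.047 over all genes. Without the filter on low counts 14 of 88 members were higher and 2 lower (15.9% and 2.27%), against 7.63% and 11.2% of all 21577 genes then tested. With the filter, 19 of 44 Rpl symbols and 16 of 24 Rps symbols were higher, so members of both subunits were among the 35. Genes of this gate were named by the rule used for the other gates, but after its values were seen.

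Rps24, a small subunit protein that is mutated in some patients with Diamond-Blackfan anaemia, had 337, 493 and 592 normalised CPM in intermediate progenitors as lowest, median and highest embryo, against 248, 331 and 359.7 in excitatory neurons. It was higher in 7 of 7 embryos (log2 fold change 0.59, SE 0.068, edgeR adjusted p = 7.15e-12). Rps9, of the body of the small subunit, averaged 1302 ± 219 normalised CPM in intermediate progenitors and 901 ± 114 in excitatory neurons (SD, n = 7; log2 fold change 0.53, SE 0.054, edgeR adjusted p = 7.82e-14). Rps27l had 96.7, 115 and 158 normalised CPM as lowest, median and highest embryo in intermediate progenitors, against 64.4, 68.7 and 82.7 in excitatory neurons, without overlap (log2 fold change 0.76, SE 0.13, edgeR adjusted p = 5.61e-07). In GENCODE on mm10 Rps24 lies at chr14:24487125-24496959, Rps9 at chr7:3703993-3706897 and Rps27l at chr9:66946086-66949516. Rpl35a and Rpl31, both of the large subunit, had log2 fold changes of 0.57 and 0.57 (edgeR adjusted p = 4.94e-07 and 0.00247).

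The 2 lower members were Rpl15 and Rpl21. Rpl15, a large subunit protein, had 92.3, 105 and 116 normalised CPM as lowest, median and highest embryo in intermediate progenitors, against 139, 158 and 183 in excitatory neurons, again without overlap (log2 fold change −0.59, SE 0.11, edgeR adjusted p = 4.27e-06). It lies at chr14:18267823-18271391 and shares 0% of its 3′ runs with other genes. Rpl21 averaged 19.6 ± 8.93 in intermediate progenitors and 29.1 ± 4.03 normalised CPM in excitatory neurons (log2 fold change −0.61, SE 0.25, edgeR adjusted p = 0.039). Both were also lower in radial glia and cycling progenitors.

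**Figure D4:**
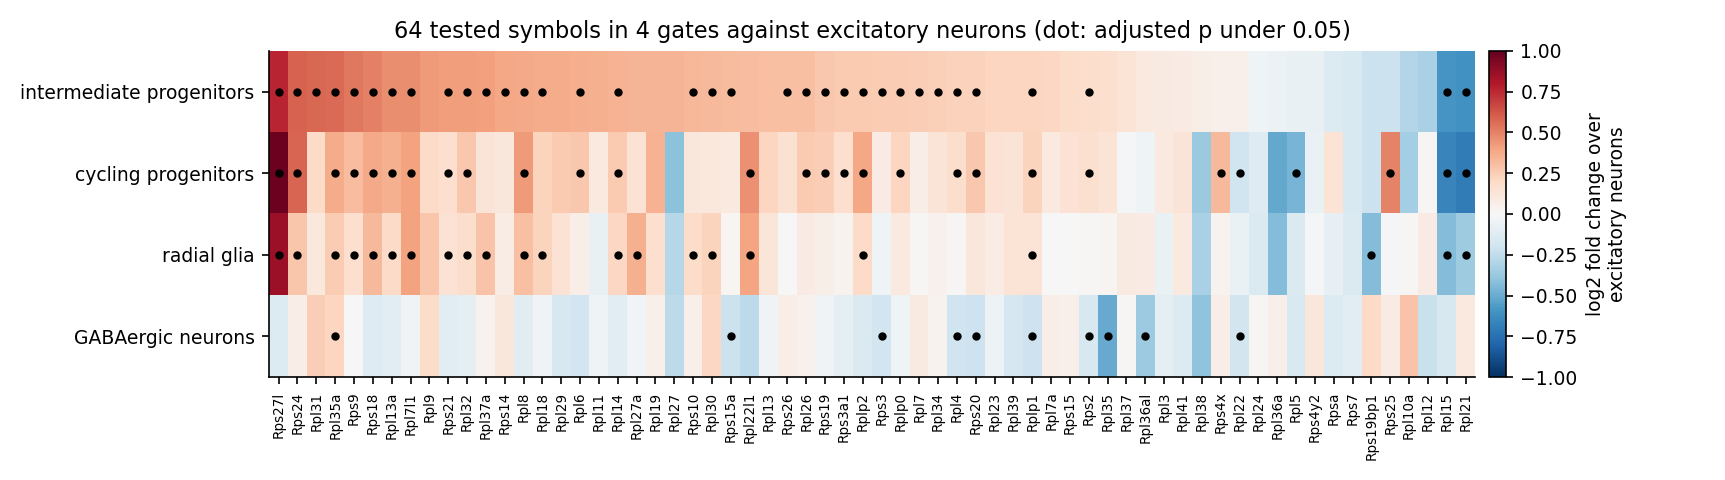
Log2 fold change over excitatory neurons of 64 tested symbols (columns, ordered by the intermediate progenitor value) in 4 gates (rows); red is higher and blue lower than in excitatory neurons, and a dot marks an edgeR adjusted p under 0.05. Dots number 34 in intermediate progenitors, 28 in cycling progenitors, 22 in radial glia and 10 in GABAergic neurons.

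In radial glia 19 members were higher and 3 lower than in excitatory neurons (27.9% and 4.41% of 68), against 29.9% and 30.9% of all genes. In all 32.4% of members were called, against 60.8% of all genes, and the median was 0.075, against −0.0078 over all genes. Scaled by total UMIs alone, 27 members were higher and 2 lower. Of all 9144 genes, 3108 were then higher and 2395 lower, against 2735 and 2824 with the main scaling, so the whole table moved too. Without control 16 the members' counts were 11 and 3, and the share of all genes in that fit is not given here. Ttr, the choroid plexus marker tested in this fit, was higher in radial glia (log2 fold change 4.18, SE 0.83, edgeR adjusted p = 9.95e-05), and 0 of 5 tested erythroid markers were called. Rps27l had the largest rise, with 109.5, 121 and 162 normalised CPM as lowest, median and highest embryo in radial glia, against 64.4, 68.7 and 82.7 in excitatory neurons, without overlap (log2 fold change 0.85, SE 0.093, edgeR adjusted p = 1.63e-13). Rpl7l1 (log2 fold change 0.40, SE 0.10, edgeR adjusted p = 0.000344) and Rpl22l1 (log2 fold change 0.39, SE 0.10, edgeR adjusted p = 0.000614) came next. Thus 3 of the 5 members with the largest rise were paralogs of other members, and whether their proteins enter ribosomes was not tested. Their partners Rpl22 and Rpl7 were not called in this gate, with log2 fold changes of −0.070 and 0.0094 (edgeR adjusted p = 0.308 and 0.901). Rpl27a (0.35) and Rps18 (0.33) completed the 5. Lower were Rpl15 (log2 fold change −0.43, SE 0.077, edgeR adjusted p = 9.16e-07), Rpl21 (−0.35) and Rps19bp1 (−0.43), the last of which is no ribosomal protein.

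In cycling progenitors 25 members were higher and 4 lower than in excitatory neurons (36.8% and 5.88%), against 31% and 27.5% of all genes, 58.5% together. Without the filter on low counts 11 of 88 were higher and 4 lower (12.5% and 4.55%), against 14.5% and 15.5% of all genes. Rps27l again led, with 88.4, 132 and 254 normalised CPM as lowest, median and highest embryo in cycling progenitors, against 64.4, 68.7 and 82.7 in excitatory neurons, without overlap (log2 fold change 0.98, SE 0.11, edgeR adjusted p = 2.33e-12). Rps24 followed (471 ± 57.1 in cycling progenitors and 314 ± 44.6 normalised CPM in excitatory neurons; log2 fold change 0.58, SE 0.065, edgeR adjusted p = 5.82e-13). Rps25, Rpl22l1 and Rpl8 had log2 fold changes of 0.50, 0.46 and 0.43. The lower members were Rpl21 (−0.70), Rpl15 (−0.66), Rpl5, which binds the small ribosomal RNA of the large subunit (−0.46), and Rpl22 (−0.20). Here Rpl22l1 rose while Rpl22 fell (log2 fold change −0.20, SE 0.067, edgeR adjusted p = 0.00842). Rpl22l1 averaged 68.6 ± 15.7 normalised CPM in cycling progenitors and 49.6 ± 6.55 in excitatory neurons, and Rpl22 375 ± 62.9 and 433 ± 43.5. Rpl22l1 shares 63.9% of its 3′ runs with other genes.

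The stalk genes were among the higher members. Rplp1 and Rplp2 were higher in all 3 progenitor gates, by 0.21 and 0.26 on the log2 scale in intermediate progenitors, 0.22 and 0.39 in cycling progenitors and 0.14 and 0.19 in radial glia. Rplp0 was higher in intermediate and cycling progenitors (0.25 and 0.21) and was not called in radial glia (0.096, edgeR adjusted p = 0.075). Rpl13a, known in human cells as a part of an interferon-dependent silencing complex, was higher in all 3, with 1281, 1671 and 2184 normalised CPM as lowest, median and highest embryo in intermediate progenitors, against 961, 1203 and 1558 in excitatory neurons (log2 fold change 0.47, SE 0.056, edgeR adjusted p = 2.24e-11). Rpsa was called in none of the 4 gates against excitatory neurons. Rps6 and Rps27a were too low to be tested in this fit.

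Set directly against radial glia, intermediate progenitors had 20 members higher and 0 lower (29.4% and 0% of 68), against 14.1% and 13.7% of all genes, 27.8% together. Rps9 (log2 fold change 0.36, SE 0.055, edgeR adjusted p = 1.12e-07) and Rps24 (0.32) were among the leading members, with Rpl31 (0.46) and Rpl35a (0.32). Of the 20, 11 were Rps symbols among 24 tested and 9 were Rpl symbols among 44. Without mutant 12 the count was 11, and without control 14 or control 15 it was 13, in each case with 0 lower. The share of all genes in these smaller fits is not given here. Without the filter on low counts 7 of 88 were higher and 0 lower (7.95% and 0%), against 3.95% and 8.34% of all genes. Ttr, a choroid plexus marker, was lower in intermediate progenitors than in radial glia (log2 fold change −4.17, SE 1.39, edgeR adjusted p = 0.026). Rps27l was not called between these gates (log2 fold change −0.088, SE 0.13, edgeR adjusted p = 0.673).

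**Figure D5:**
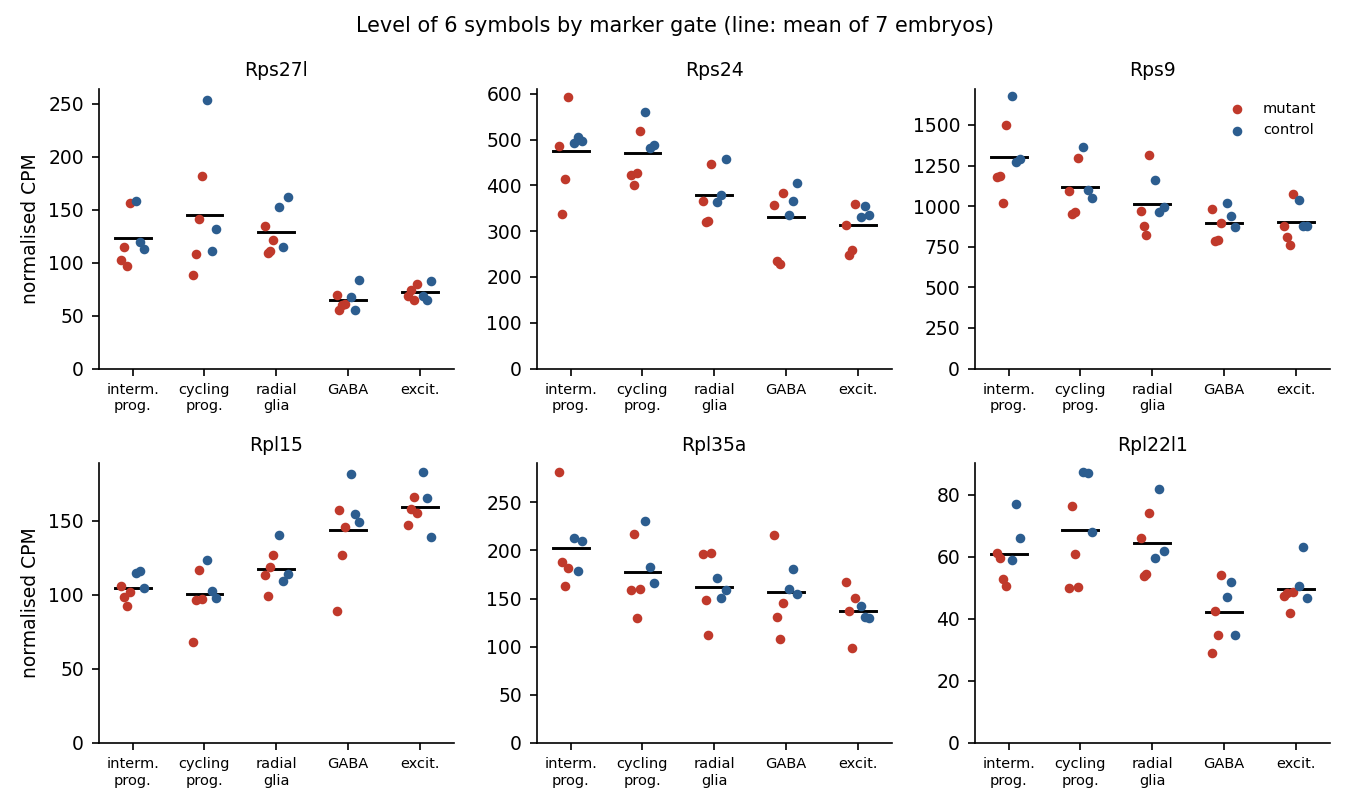
Normalised CPM of 6 symbols in 5 marker gates, with axes from 0; points are the 7 embryos (mutants left of controls) and lines their means. Rps27l is above the excitatory neurons of every embryo in the 3 progenitor gates, the mean of Rps9 is highest in intermediate progenitors (1302), and Rpl15 is lower in progenitors than in excitatory neurons.

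In GABAergic neurons 2 members were higher and 9 lower than in excitatory neurons (2.94% and 13.2% of 68), against 15% and 16.2% of all genes (31.2% together), with a median of −0.048. In the same fit Ttr was higher in GABAergic neurons (log2 fold change 3.49, SE 0.97, edgeR adjusted p = 0.00693), as were 2 of 5 tested erythroid markers, Hba-a2 (log2 fold change 1.22, SE 0.45, edgeR adjusted p = 0.0388) and Hbb-bt (log2 fold change 1.25, SE 0.46, edgeR adjusted p = 0.0417). Rpl35, which lies near the tunnel exit and shares 79.8% of its 3′ runs with other genes, averaged 33.2 ± 14.5 normalised CPM in GABAergic neurons and 48.7 ± 13.3 in excitatory neurons, lower in 7 of 7 embryos (log2 fold change −0.51, SE 0.15, edgeR adjusted p = 0.00718). Rpl36al (−0.36), Rps15a (−0.21), Rplp1 (−0.21) and Rps20 (−0.20) were the next lower members by log2 fold change, and Rpl35a (0.21) was 1 of the 2 higher ones. Without control 15 there were 0 higher and 4 lower, and without mutant 10 or mutant 12 there were 0 higher and 7 lower. The share of all genes in those smaller fits is not given here, so whether the fall was particular to members was not tested.

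Genes that work with the ribosome were read from lists of translation and ribosome genes. Their shares are set beside those of all genes in the same comparison, which were 29.9% higher and 30.9% lower in radial glia, 31% and 27.5% in cycling progenitors, 21.2% and 18.9% in intermediate progenitors and 15% and 16.2% in GABAergic neurons. Among 71 genes of the mitochondrial ribosome 17 were higher and 5 lower in radial glia than in excitatory neurons (23.9% and 7.04%), 25 higher and 1 lower in cycling progenitors (35.2% and 1.41%), 14 higher and 0 lower in intermediate progenitors (19.7% and 0%), and 0 higher and 9 lower in GABAergic neurons (0% and 12.7%). Mrpl17 was the leading one in radial glia (log2 fold change 0.99, SE 0.094, edgeR adjusted p = 3.98e-16). Of 47 tested genes of ribosome assembly 12 were higher and 6 lower in radial glia (25.5% and 12.8%), led by Ltv1 (1.06) and Sbds (0.87), which act in the maturation of the small and the large subunit. In intermediate progenitors 1 of the 47 was higher, the GTPase gene Bms1 (0.47), and 4 were lower (2.13% and 8.51%). Cycling progenitors had 14 of the 47 higher and 5 lower (29.8% and 10.6%), and GABAergic neurons 3 higher and 8 lower (6.38% and 17%).

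Of 14 genes of elongation and nascent-chain chaperones, 5 were higher and 2 lower in intermediate progenitors (35.7% and 14.3%), 2 were higher and 5 lower in radial glia (14.3% and 35.7%), 4 were higher and 4 lower in cycling progenitors (28.6% each), and 0 were higher and 7 lower in GABAergic neurons (0% and 50%). Nap1l1, a histone chaperone whose messenger RNA has a TOP tract in human cells, was higher in intermediate progenitors, radial glia and cycling progenitors (0.47, 0.60 and 0.93). Eef1a2, the elongation factor form of mature neurons, was lower in the same 3 gates (−2.20, −1.53 and −1.50, in the same order). Eef2, which moves the ribosome along the message, was lower in radial glia (log2 fold change −0.33, SE 0.049, edgeR adjusted p = 5.18e-09). Of 31 tested initiation factors 4 were higher and 2 lower in intermediate progenitors (12.9% and 6.45%), 4 were higher and 9 lower in radial glia (12.9% and 29%), 11 were higher and 3 lower in cycling progenitors (35.5% and 9.68%), and 2 were higher and 9 lower in GABAergic neurons (6.45% and 29%). Eif4a2, a helicase of initiation, was lower in intermediate progenitors, radial glia and cycling progenitors (−0.48, −0.57 and −0.82). Among 17 tested genes of mTOR signalling and TOP control, 2 were higher and 3 lower in radial glia (11.8% and 17.6%). The 2 higher were Larp4 (0.50) and Rps6ka6 (0.49), and the 3 lower were Eif4ebp2 (−0.64), Tsc1 (−0.49) and Larp1 (−0.29). In intermediate progenitors 1 was higher and 2 lower (5.88% and 11.8%). Cycling progenitors had 2 higher and 2 lower (11.8% each), and GABAergic neurons 3 higher and 2 lower (17.6% and 11.8%). Of ribosomal proteins with other symbols, Gnb2l1 (Rack1 of the small subunit) was higher in intermediate progenitors (log2 fold change 0.30, SE 0.051, edgeR adjusted p = 5.65e-07) and Fau was too low to be tested. Between mutants and controls, 0 genes of these lists were called in all kept barcodes; at an unadjusted p under 0.05 there were 1 of 75 mitochondrial ribosomal genes, 6 of 32 initiation factors, 4 of 48 assembly genes, 2 of 20 mTOR genes and 0 of 14 elongation genes, against 1353 of all 12893 genes.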

How the data were processed

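Per the labels' protocols, cortices were dissociated with papain and single cells were sequenced on Seq-Well arrays of poly(A)-capture beads, 1 library per embryo. The authors deposited 1 table of whole-number UMI counts per library (gene symbols by barcodes, not normalised), made with STAR on mm10 per the submitters' processing notes. Not given in the sources used here: the aligner version, the annotation, how UMIs were collapsed and how reads matching several genes were handled. Totals were 7083225 to 11859209 UMIs per library, and no row lacked a gene name.

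Kept barcodes were those with at least 500 genes and at most 10% mitochondrial UMIs. Each went to the marker list (10 genes) of which it had most different genes, at least 2, with ties unassigned; 9 gates resulted. No doublet caller was run, so barcodes with 2 cells stayed in. Raw counts were summed per embryo, or per embryo and gate where every embryo had at least 20 barcodes. Tests were two-sided edgeR 4.0.16 quasi-likelihood tests (robust, TMM, filterByExpr) in R 4.3.3 with Benjamini-Hochberg adjustment over all genes, called at an adjusted p under 0.05. Genotype fits had 4 mutants and 3 controls. Gate fits had the embryo as a term. Levels in the tests are counts scaled by TMM library sizes. Shares of UMIs were given per embryo with no test, since the members were chosen with results known. Thinning drew 1000 UMIs from each barcode with at least that many (seed 1).

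Other scalings, DESeq2 1.42.0, no filter on low counts, other barcode filters, at least 3 markers, and leaving out each embryo were the alternatives. The fits were tested on simulated data. Named genes were, per gate contrast, the 5 members with the largest change in each direction among those called, per genotype fit the 5 with the smallest p, the paralog pairs, the stalk genes, Rpsa, Rps19bp1, Rpl13a, Rps6 and Rps27a. Lists covered elongation and chaperones, initiation factors, ribosome assembly, mTOR and TOP control, the mitochondrial ribosome, ribosomal proteins with other symbols, and erythroid, meningeal and choroid plexus markers. Values of 4 members are not reported or drawn singly here, though all counts and shares include them. Members and lists were chosen with earlier results of these data known. Positions and transcripts came from GENCODE on mm10, start sequences from RefSeq.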

Additional observations from a re-analysis of the deposited data

Results flagged for a closer look

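Rpl8, a large subunit protein at the peptidyl transferase centre, had 1132, 1085 and 1068 normalised CPM in the cycling progenitors of mutants 10, 11 and 12, and 1502.78 in those of mutant 17. The gap to the next mutant was 0.852 of the range of the 4 mutants. Controls 14, 15 and 16 had 1480.3, 1382 and 991. Of 58 groups of 4 samples examined this way 1 stood out, and chance alone sets about 1 in 20 apart.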

How the results depend on the processing

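Of 683 alternatives for 51 values of named members, 629 left the call and direction as they were, 52 lost and 2 gained a call, and 0 turned the direction. Of 213 alternatives for 17 counts and shares, 200 stayed within 1.5 times the main count or within 1 SD. For the share difference of mutants from controls (−0.145 percentage points), the SD pooled over embryos was larger than the difference itself. Even a difference of 0 would have stayed within that SD, so the 200 say little about this difference. Main counts of 0 stayed only where the alternative also gave 0. Without a filter on low counts 1 member was called between mutants and controls in all kept barcodes (Rpl29, lower in mutants, edgeR adjusted p = 0.0193, with 129 of 22320 genes called). In excitatory neurons 1 was called (Rps26, edgeR adjusted p = 0.0276), and the count over all genes in that fit is not given here. In the gate fits without this filter, 15 were called in cycling progenitors and 16 in intermediate progenitors against excitatory neurons, and 7 between intermediate progenitors and radial glia. Why these counts were lower than with the filter was not tested. The shares of all genes stand with those gate results. Leaving out 1 embryo gave 0 to 2 called members between mutants and controls, 14 to 24 in radial glia, 4 to 10 in GABAergic neurons and 11 to 20 between intermediate progenitors and radial glia. The embryos behind the lower counts are named with the results. The share of all genes is given there only for the fit without mutant 17, so the other counts are not set against all genes. The share difference of mutants from controls stayed negative whichever embryo was left out, from −0.294 to −0.0529 percentage points. No paired analysis was possible because mutants and controls share no replicate numbers. With 4 and 3 embryos of 1 litter, small differences between genotypes are not detectable, the litter cannot be separated from the result, and members of few UMIs or with near-identical copies have uncertain levels.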
